A study of Danio rerio with 30 samples.

Results

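A set of muscle contraction genes of zebrafish larvae, 75 of 31846 gene symbols, is described here in whole-body RNA-seq libraries. These genes code for filament proteins of the sarcomere and for proteins that store, release, buffer and remove calcium. They were chosen by name: 79 symbols began with a stem of the fast and slow myosin heavy chains, myosin light chains, myosin binding proteins C, troponins, tropomyosins, titins, nebulins, sarcomeric alpha-actinins and actins, parvalbumins, calsequestrins, calcium pumps or ryanodine receptors. The heart genes tnnt2a and tnni1b were left out by the rule. Among the genes kept, 9 are called cardiac by the annotation. The symbols tnni1a and tnni3k had 55 and 34 reads over all libraries and missed the minimum of 10 reads in 3 libraries. Of the 75, only tnni4b.1 had too few reads for the fitted tests, which leaves 74.

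All libraries came from AB wild-type larvae at 120 hours post fertilization (hpf), taken whole. There were 10 groups of 3 libraries. Larvae of 9 groups had been exposed to a paraben, an ester of para-hydroxybenzoic acid used as a preservative: methylparaben (MtP), ethylparaben (EtP) or propylparaben (PrP), each at the labels BMD5/50, BMD5/10 and BMD5. The last group was an untreated Control. The concentrations behind the labels, the number of larvae per library and the genome build are not known from the labels or the file. Nothing in the labels says that the 3 libraries of a group came from separate clutches, so p-values measure the spread between these libraries only, which may be technical.

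In a muscle fibre, thick filaments of myosin pull on thin filaments of actin, which are anchored at the Z-disc by alpha-actinin. Titin spans from Z-disc to M-band, and nebulin sets the length of the thin filament. Calcium leaves the sarcoplasmic reticulum through ryanodine receptors, binds troponin C and moves tropomyosin off the actin sites, so that myosin can bind. Parvalbumin takes up the calcium and the ATP-driven pumps of the atp2a family return it to the reticulum, where calsequestrin holds it. In zebrafish larvae, fast fibres make up most of the trunk muscle and are covered by a thin layer of slow fibres.

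Total reads ran from 9711814 to 24468093 per library, and 18543 genes were tested. The libraries numbered 1 stood apart from those numbered 2 and 3 in every group, so the comparisons between groups are also given without them. The defining genes of skeletal muscle outside the rule (myl1, ckma, ckmb, myoz1b, myom1a, desma, cav3, tcap, klhl41b and mb) were present in every library, with summed levels of 5700 to 14030 CPM (reads scaled to library depth) in the 10 libraries numbered 1 and 15970 to 23300 in the 20 others. Defining heart genes were low: myl7, nppa, cmlc1, tnnt2a and tnni1b summed to 2.29 to 41.0 CPM, and myh6 and nkx2.5 had too few reads to be tested. In whole larvae, fewer cells of a type and less RNA per cell cannot be told apart.

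The 75 genes ranged in level from 0.04 to 32880 TPM (ryr2b and pvalb1), and 10 of them held most of the summed TPM of the 75. Levels between genes are given in TPM, the authors' unit scaled for transcript length and library depth, as the median of 30 libraries. The 10 highest genes held a median of 91.1% of the members' summed TPM, with a range of 88.96 to 93.93% over libraries. Of the 75 genes, 14 stood above 1000 TPM, 29 above 100 TPM, 22 below 10 TPM and 6 below 1 TPM.

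Among the thick filament genes, the light chains and 1 of the heavy chains led. The regulatory light chain of fast muscle, mylpfa, stood at 9599 TPM and its paralog mylpfb at 2466 TPM, while mylz3, a light chain of skeletal muscle, stood at 9118 TPM. The fast heavy chain myhz1.1, the motor itself, stood at 3914 TPM and took 58.2% of the TPM of the 9 heavy chains. Next came myhz1.2 at 1326 TPM, myhz2 at 785 TPM and myhz1.3 at 679 TPM. The slow heavy chains were far lower, with smyhc1 at 79.7 TPM, smyhc2 at 11.5 TPM and smyhc3 at 1.49 TPM. The heavy chain myhb was the lowest of the group at 0.57 TPM. Of the myosin binding proteins C, which tie the thick filament together, mybpc3 stood at 56.9 TPM and the other 3 between 1.75 and 11.1 TPM.

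In the thin filament, actc1b, which the annotation calls cardiac and which zebrafish also use in skeletal muscle, stood at 29680 TPM. It took 92.1% of the TPM of the 5 actins, ahead of acta1b at 1844 TPM. Nebulin, neb, which sets the length of the thin filament, stood at 542 TPM, against 1.59 TPM for nebl, the gene of the shorter nebulette. Each troponin subunit was dominated by 1 fast gene. The calcium-binding subunit tnnc2 stood at 4663 TPM and took 97.3% of troponin C. The inhibitory subunit tnni2a.4 stood at 5116 TPM and took 90.05% of the 11 troponin I genes. The tropomyosin-binding subunit tnnt3b stood at 6369 TPM and took 94.96% of the 7 troponin T genes. The slow and cardiac subunits were lower, with tnnc1b at 124 TPM, tnnt2d at 91.9 TPM, tnni1c at 28.5 TPM, tnnt1 at 14.8 TPM and tnnc1a at 0.26 TPM.

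The 5 tropomyosins of the rule summed to a median of 365 TPM, led by tpm2 at 158 TPM and tpm3 at 148 TPM. The rule does not take in tpma, an alpha-tropomyosin gene, which was looked up after these values were seen. The level of tpma was 4902 to 14120 TPM in the libraries numbered 1 and 13500 to 20310 TPM in the others.

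The scaffold genes spanned a wide range. Titin, the elastic protein that spans from Z-disc to M-band, is coded here by the neighbours ttn.1 and ttn.2, which stood at 14.9 and 17.7 TPM. The Z-disc cross-linker actn3a stood at 550 TPM, actn3b at 81.7 TPM and actn2b at 5.41 TPM.

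Among the 75 genes, 2 calcium buffers stood highest. The parvalbumins pvalb1 and pvalb2 stood at 32880 and 30280 TPM, and the 9 parvalbumins together took 44.2% of the members' TPM. The other 7 ran from pvalb4 at 993 TPM to pvalb9 at 24.3 TPM. The fast calcium pump atp2a1 stood at 2433 TPM and atp2a1l at 1213 TPM, while atp2a2b, atp2a3 and atp2a2a stood at 9.14, 4.89 and 3.06 TPM. The calsequestrins stood below these first 2 pumps and above the other 3, with casq1b at 79.4 TPM, casq1a at 44.4 TPM and casq2 at 13.1 TPM. Of the calcium release channels, ryr3 stood at 20.5 TPM and took 88.8% of the family, against 1.69 TPM for ryr1b, 0.83 TPM for ryr1a and 0.04 TPM for ryr2b.

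Neighbours in this order often overlapped. The ranges over 30 libraries were 19270 to 41870 TPM for pvalb1 and 11300 to 36120 TPM for pvalb2, and those of mylpfa and mylz3 overlapped likewise (lowest values 4567 and 4133 TPM).

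**Figure D1:**
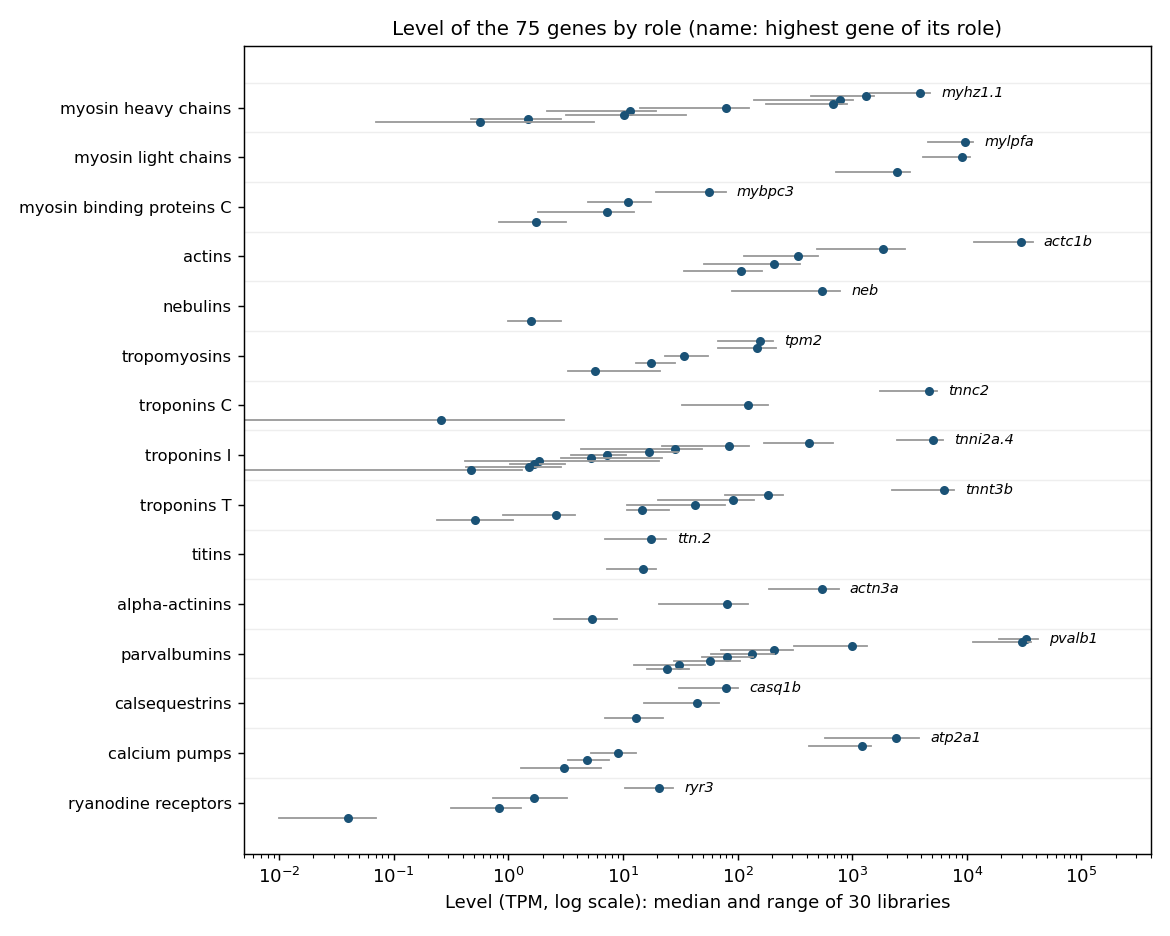
Level of each of the 75 genes in TPM on a log axis, in rows by role. Points are medians and lines are ranges over 30 libraries, and the highest gene of each role is named; the lines of tnnc1a and tnni4b.1 reach 0 TPM and run off the left edge. The parvalbumins pvalb1 and pvalb2 and the actin actc1b stand highest, at 32880, 30280 and 29680 TPM.

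Several of these genes lie in tandem, and in the rows of troponin I 2 and parvalbumin genes given here 1 copy held most of the TPM. The neighbours ttn.1 and ttn.2 stood close to each other, as given above. Positions are the authors', on a genome build that the file does not name. On chromosome 25 the 4 copies tnni2a.1 to tnni2a.4 lie on the plus strand between 31222069 and 31288658. The last of them, tnni2a.4, stood at 5116 TPM, against 1.86 TPM for tnni2a.1, 1.68 TPM for tnni2a.2 and 7.34 TPM for tnni2a.3. On chromosome 7, tnni2b.2 stood at 421 TPM and its neighbour tnni2b.1 at 5.31 TPM. On chromosome 3, pvalb1 lies on the minus strand at 61193890 to 61205711, next to pvalb4 at 993 TPM, pvalb8 at 209 TPM and pvalb5 at 30.8 TPM. On chromosome 12, pvalb2 lies on the minus strand at 17710425 to 17712498 beside pvalb3 at 57.1 TPM and pvalb9 at 24.3 TPM. How the authors counted reads that fit several such copies is not stated, so the split between copies is uncertain. The symbols actc1a, myhz1.1 and smyhc2 each join 2 gene IDs.

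Some troponin T and troponin I genes lie within 250000 bases of each other, and both genes of a pair were not always high. The pair tnnt3b and tnni2b.2 on chromosome 7, with 50413 bases between them, stood at 6369 and 421 TPM. The pair tnnt3a and tnni2a.4 on chromosome 25, 116608 bases apart, stood at 184 and 5116 TPM. The pair tnnt2d and tnni4b.2 on the same chromosome, 116191 bases apart, stood at 91.9 and 84.9 TPM. The pair tnnt2e and tnni4a on chromosome 4, 99003 bases apart, stood at 42.6 and 1.53 TPM.

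The share of reads in the muscle genes differed by replicate number in every group. The 75 genes took 6.10 to 13.4% of all reads in the 10 libraries numbered 1 (median 11.2%) and 14.1 to 19.0% in the 20 libraries numbered 2 and 3 (median 16.8%), and the ranges did not overlap. The lowest shares were 6.10% in PrP BMD5/10 replicate 1 and 7.48% in MtP BMD5 replicate 1. In Control the shares of replicates 1, 2 and 3 were 12.6, 17.1 and 19.0%.

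**Figure D2:**
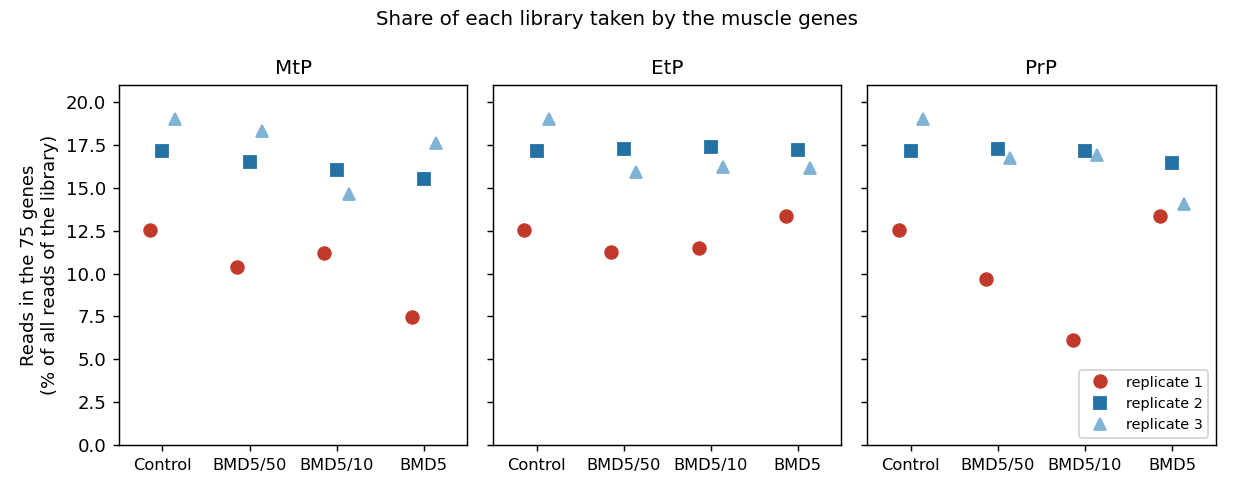
Share of each library's reads in the 75 genes, in percent, by group, with 1 panel per compound; the same 3 Control libraries stand at the left of each panel. Colours and shapes mark the replicate number, and replicate 1 is the lowest in every group, down to 6.10% in PrP BMD5/10.

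Replicate 1 was then set against the mean of replicates 2 and 3 in 1 model with terms for group and number (edgeR quasi-likelihood test, Benjamini-Hochberg adjustment over all genes). Of the 74 tested members, 69 were lower in replicate 1 and 2 were higher at an adjusted p under 0.05. Over all 18543 genes, 29.0% were lower and 27.4% higher. The median log2 difference of the members was -0.99, against 0.03 over all genes. Replicates 2 and 3 differed in 0 members at that threshold, against 0.0863% of all genes, with 5 members at an unadjusted p under 0.05 (9.55% of all genes). The labels do not say what the replicate number stands for, and batch and clutch cannot be told apart.

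All 9 myosin heavy chains were lower in replicate 1, from -0.89 for myhz1.1 to -2.75 for myhb. The slow chains smyhc2 (-1.79 ± 0.14, log2 ± SE, adjusted p = 4.49e-09) and smyhc1 (-1.66 ± 0.14) were among the farthest, while the light chains mylpfa and mylz3 stood at -0.72 and -0.65. The level of smyhc1 was 14.1 TPM in PrP BMD5/10 replicate 1 and 23.1 TPM in MtP BMD5 replicate 1, against medians of 36.6 TPM over all libraries numbered 1 and 87.6 TPM over the others. All 4 myosin binding proteins C were lower, from -0.92 for mybpc2a to -1.47 for mybpc2b.

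The 5 actins were lower by -0.88 for actc1b to -1.37 for actc1c, and nebulin, neb, by -1.54. All tested troponins were lower: the 3 troponins C (median -1.44), the 10 troponins I (median -1.20) and the 7 troponins T (median -0.89). The smallest step among them was that of tnnt1, the slow troponin T (-0.28 ± 0.11). The 5 tropomyosins had a median of -0.72. Both titins were lower, ttn.1 by -0.78 and ttn.2 by -0.96, as were actn3a (-1.15) and actn3b (-1.18).

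Among the calcium genes, 8 of 9 parvalbumins, 3 of 3 calsequestrins, 3 of 5 pumps and 4 of 4 ryanodine receptors were lower. The calcium pump atp2a1 stood at -1.39 ± 0.13, with 1488 CPM in replicate 1 of PrP BMD5/10 and 9847 and 9129 CPM in its replicates 2 and 3. Its 3 Control libraries had 4398, 8827 and 9924 CPM, so replicate 1 was the low library in both groups. The parvalbumins pvalb1 and pvalb2 stood at -0.57 and -0.995, the calsequestrins casq1a and casq1b at -1.27 and -0.99, and the 4 ryanodine receptors between -1.07 and -0.77.

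The 5 genes that did not follow were pvalb6, nebl, atp2a2b, actn2b and atp2a3. The parvalbumin pvalb6 (0.33 ± 0.07, log2 ± SE) and the nebulette gene nebl (0.30 ± 0.10) were higher in replicate 1. The calcium pump atp2a2b (0.09), the alpha-actinin actn2b (0.19) and the calcium pump atp2a3 (0.00, 95% interval -0.11 to 0.11) were not called. In TPM, pvalb6 had a median of 111.9 in replicate 1 and 73.5 in replicates 2 and 3. The 3 genes not called also had higher TPM medians in replicate 1. These were 11.11 against 8.365 for atp2a2b, 6.65 against 4.70 for actn2b and 5.695 against 4.69 for atp2a3. Where these genes lie against 0 thus depends on the scaling. Each of these 5 has paralogs among the members that were lower.

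By the words of the annotation, 14 members are called fast, 9 slow and 9 cardiac, and the remaining tested 42 carry none of these words. All 14, all 9 and all 9 were lower in replicate 1, with medians of -0.93, -1.44 and -1.06.

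**Figure D3:**
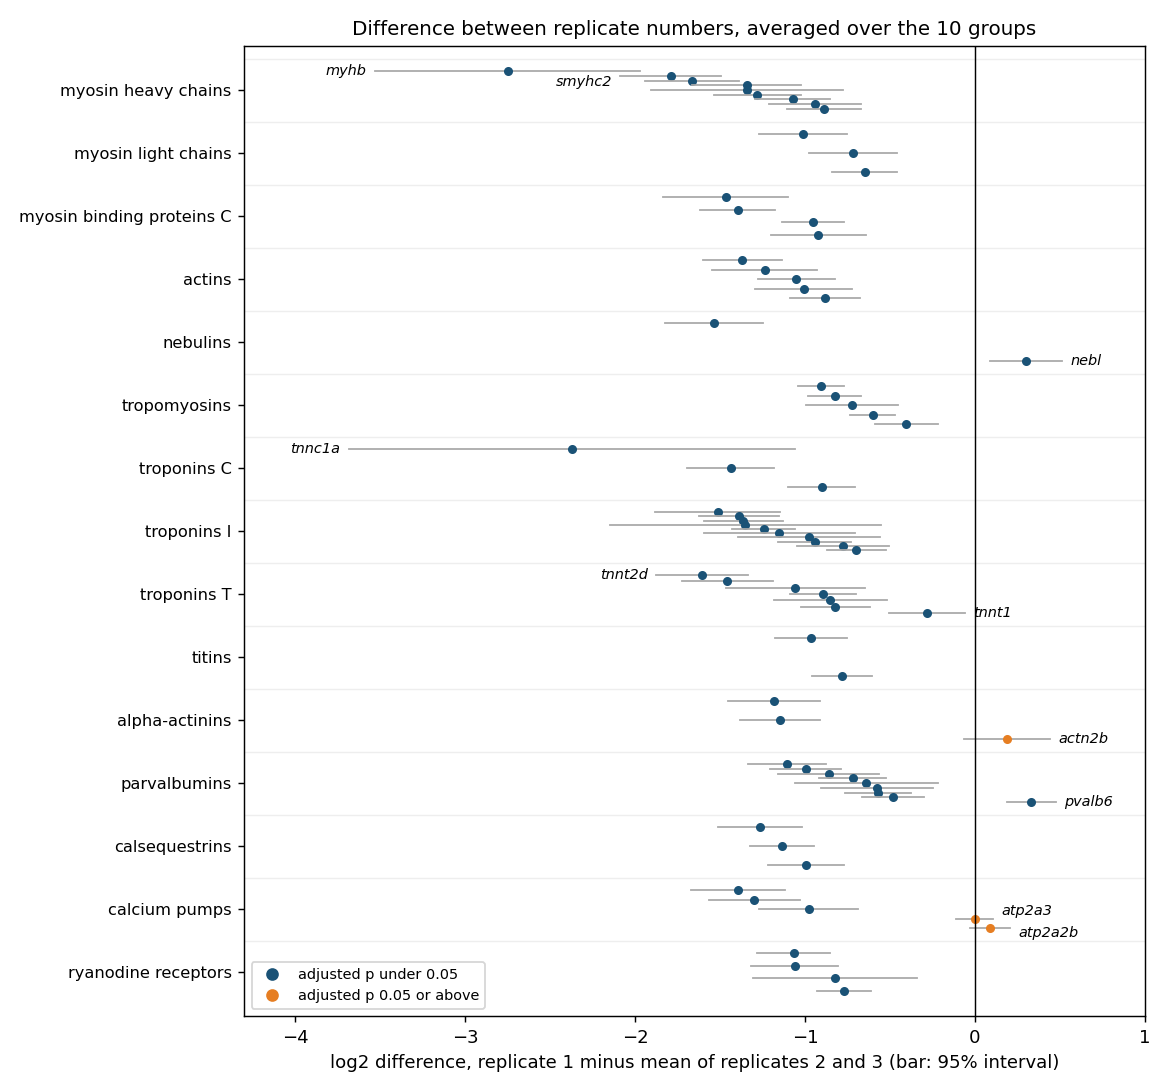
Log2 difference between replicate 1 and the mean of the other libraries (replicate 1 minus the rest) for the 74 tested genes, by role, with 95% intervals as bars. Blue points passed an adjusted p of 0.05 and orange points did not; 69 genes lie left of 0 in blue and pvalb6 and nebl lie right of it.

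The step was present in the Control larvae too. Over the 74 genes the median log2 difference between replicate 1 and the mean of the other 2 libraries was -0.74 in Control, with 67 genes lower. In the treated groups it ran from -1.78 in PrP BMD5/10 and -1.32 in MtP BMD5 to -0.54 in MtP BMD5/10, with 67 to 71 genes lower. Averaged over the 10 groups, marker genes of other tissues also differed by replicate number. The 6 epidermal markers and the 6 liver markers were all lower in replicate 1 (medians -1.25 and -2.60), as were the 5 tested heart markers (median -2.99), and the 5 neuronal markers were all higher (median 0.30). The 5 exocrine pancreas and the 4 erythroid markers were all lower (medians -3.10 and -1.33), and of 5 tested smooth muscle markers 4 were lower and 1 higher. Control alone differed from that average for some tissues. Its liver markers summed to 226.8, 195.8 and 266.0 CPM in replicates 1, 2 and 3, so replicate 1 was not the lowest. Its heart markers summed to 3.51, 5.78 and 5.10 CPM and its epidermal markers to 8363, 17540 and 16100 CPM. Summed neuronal markers were 1490 to 1739 CPM in replicate 1 and 1149 to 1454 CPM in replicates 2 and 3. Their part in the muscle values was not tested.

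Genes of the same machinery outside the rule moved with the members. Of 24 tested genes of excitation-contraction coupling, 22 were lower in replicate 1 and 0 higher (median -1.24). They included the voltage sensor subunit cacna1sb (-1.47), its adaptor stac3 (-1.13), the junctional membrane protein jph1b (-1.46) and the acetylcholine receptor clustering protein rapsn (-1.68). Of 41 tested genes of sarcomere assembly and the M-band, 41 were lower (median -1.20), among them the myosin chaperone unc45b (-1.18), the M-band protein myom1b (-1.74) and the thin filament nucleator lmod3 (-1.89). Of 14 muscle transcription factors, 9 were lower, such as myf6 (-1.76) and myod1 (-0.54), and mef2d (0.15) and prdm1a (0.32) were higher.

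The paraben groups were each set against Control to ask whether exposure changed these genes. None of the 74 members passed an adjusted p of 0.05 in any of the 9 comparisons with edgeR, and DESeq2 called 0 as well. The share called over all genes was 0.0% in each of these comparisons. At an unadjusted p under 0.05, EtP BMD5/10 had 6 members (3.66% of all genes), EtP BMD5/50 had 5 (2.84%), PrP BMD5/10 had 1 (2.5%) and the other 6 comparisons had 0. For those 6 the share of all genes was 4.73, 1.81 and 1.26% at MtP BMD5/50, BMD5/10 and BMD5, 2.05% at EtP BMD5, and 1.57 and 1.86% at PrP BMD5/50 and BMD5. All 9 comparisons share the same 3 Control libraries.

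With MtP the members lay below Control at BMD5. The median log2 fold change was -0.05 at BMD5/50, -0.24 at BMD5/10 and -0.29 at BMD5, with 28, 20 and 12 of 74 genes above 0. Over all genes the share above 0 was 49.6, 49.6 and 49.4%. By number, the members' medians for replicates 1, 2 and 3 were -0.22, 0.13 and -0.10 at BMD5/50. At BMD5/10 they were -0.05, -0.06 and -0.45. Many members vary together, so the counts are not independent observations. Every role had a median below 0 at BMD5, from -0.34 for the troponins C to -0.08 for the troponins I. The parvalbumin pvalb1 had 6960, 16250 and 18510 CPM in MtP BMD5 replicates 1, 2 and 3, against 10480, 20710 and 22500 CPM in those of Control. The groups overlapped, and each MtP library lay below the Control library of the same number. The log2 fold change was -0.36 ± 0.32 (log2 ± SE, 95% interval -1.03 to 0.30), from the fit without a term for the replicate number. The replicate numbers paired the libraries of this comparison, so intervals of that fit take in the step between numbers. The fast light chain mylpfa stood at -0.32 (interval -1.15 to 0.52) and the pump atp2a1 at -0.35 (interval -1.64 to 0.94). Set number by number, the medians of the members were -0.69, -0.17 and -0.16 for replicates 1, 2 and 3, and 53 genes had the same sign in all 3. By their unadjusted p the 3 foremost members at BMD5 were atp2a3, the troponin T tnnt3a and pvalb1, with adjusted p of 1.0 each.

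With PrP the medians were -0.12 at BMD5/50, -0.13 at BMD5/10 and -0.03 at BMD5, with 22, 24 and 34 genes above 0. Of all genes, 52.2, 51.5 and 51.4% lay above 0. At BMD5/10 the members' medians by number were -1.01, 0.24 and -0.17 for replicates 1, 2 and 3, so the replicates disagreed in sign. The pump atp2a3 had 22.4, 24.6 and 25.6 CPM in PrP BMD5/10, against 36.0, 26.4 and 27.5 CPM in Control. All 3 PrP libraries lay below all 3 Control libraries, and replicate 1 of Control was the highest of the 6. Its log2 fold change was -0.31 ± 0.11 with an adjusted p of 0.9999. At BMD5 the members with the smallest unadjusted p were atp2a3 (-0.20), nebl (0.45) and tnnc1a, all with an adjusted p of 0.9999.

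With EtP the medians were 0.02 at BMD5/50, 0.05 at BMD5/10 and 0.10 at BMD5, with 38, 43 and 50 genes above 0. Of all genes, 51.5, 50.9 and 52.6% lay above 0. By number, the medians for replicates 1, 2 and 3 were -0.21, 0.26 and -0.07 at BMD5/50, -0.23, 0.35 and -0.03 at BMD5/10, and -0.003, 0.29 and -0.001 at BMD5, so that replicate 2 alone lay above 0. All 9 genes annotated as slow and all 5 tropomyosins had values above 0 at BMD5 (medians 0.25 and 0.29), whereas 1 of 5 actins and 0 of 3 light chains did. These are only some of the classes, and many members vary together, so the counts are not independent observations. At BMD5 no member had an unadjusted p under 0.05 by edgeR, and a difference between classes was not tested. The foremost members at BMD5 were the tropomyosin tpm1 (0.51 ± 0.25, log2 ± SE), the troponin I tnni2a.1 (1.80 ± 0.89) and tnni2b.1 (1.12 ± 0.63), all with an adjusted p of 0.9999.

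**Figure D4:**
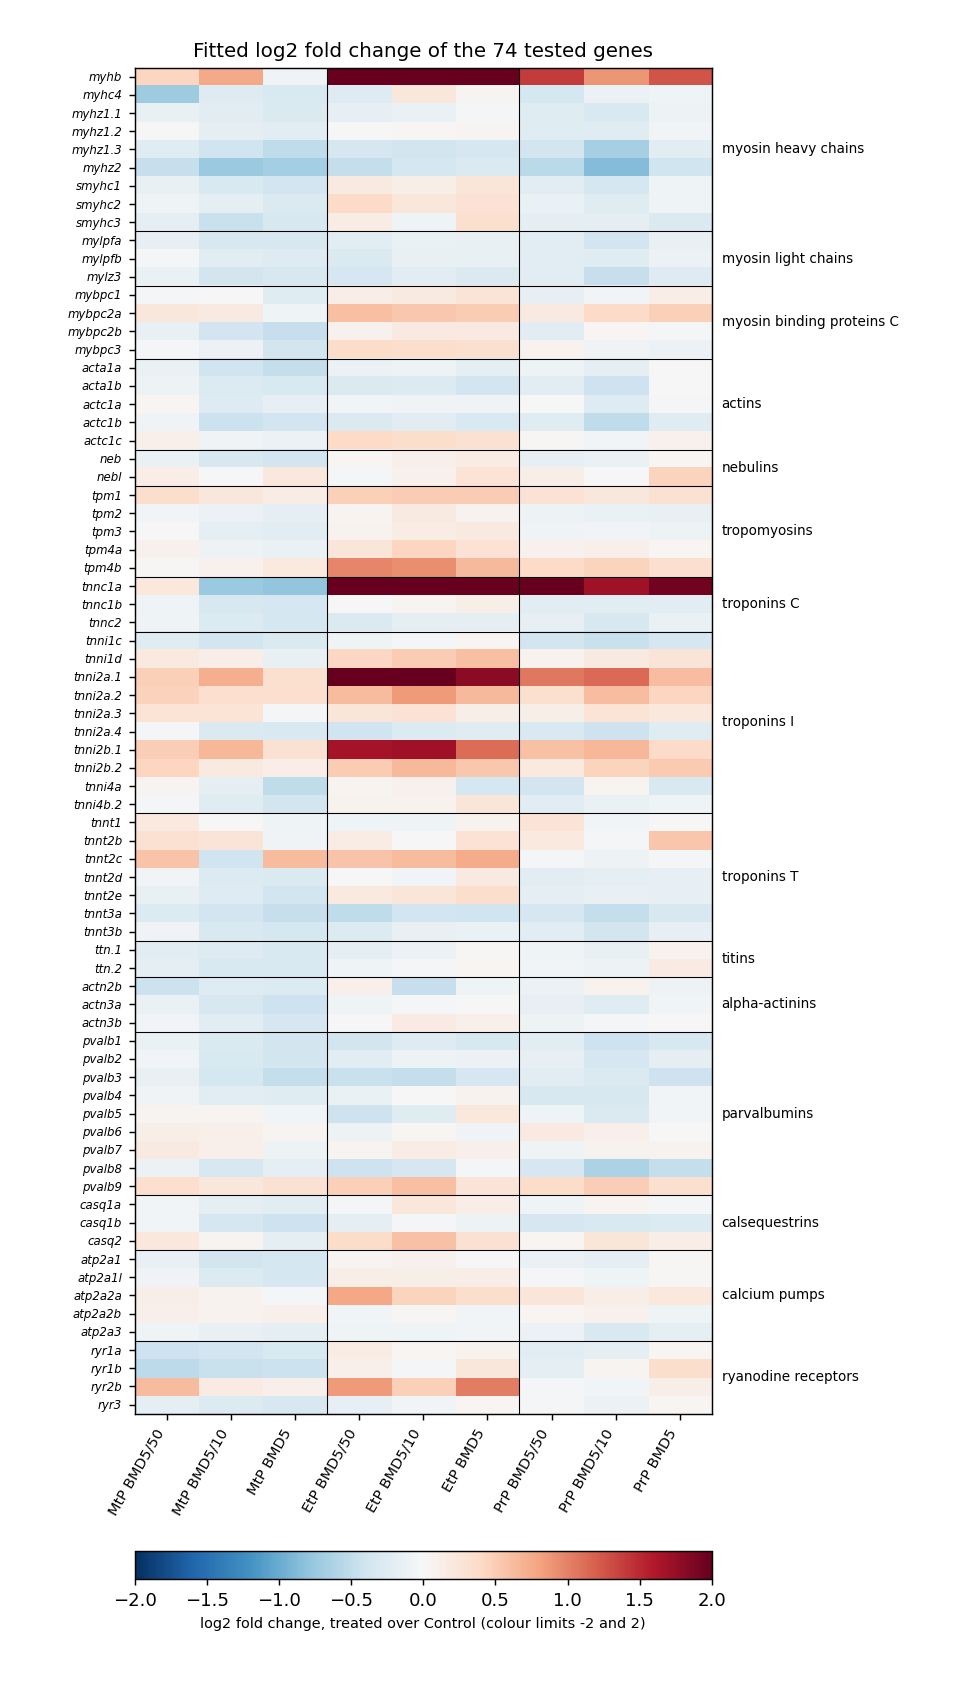
Fitted log2 fold change over Control of the 74 tested genes (rows, by role) in the 9 treated groups (columns, low to high label within each compound). Red is higher and blue lower in the treated group, with the colours ending at -2 and 2; none passed the adjusted threshold, and the values of tnnc1a rest on 1, 1 and 3 control reads.

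A small group of low genes stood out in the EtP libraries numbered 2 and 3. Some lay above Control in all 3 libraries with other compounds too. These were tnni2a.1 and tnni2b.1 in MtP BMD5/10 (4.81% of all genes higher) and tnnc1a, tnni2a.1 and tpm4b in PrP BMD5/10 (3.45%). The first tandem copy of fast troponin I, tnni2a.1, had 0.551, 5.54 and 10.6 CPM in EtP BMD5/10 and 0.861, 4.79 and 12.6 CPM in EtP BMD5/50, against 0.772, 0.661 and 0.706 CPM in Control. The libraries numbered 2 and 3 were high and the EtP libraries numbered 1 were at the Control level, so that at BMD5/10 the groups overlapped, while at BMD5/50 all 3 EtP libraries lay above Control. Its log2 fold changes were 2.96 ± 0.88 at BMD5/10 and 3.10 ± 0.88 at BMD5/50, with adjusted p of 0.9993 and 1.0 (edgeR). The Control values rest on 11, 8 and 9 reads.

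The heavy chain myhb had 1.102, 26.6 and 34.2 CPM in EtP BMD5/10, against 1.26, 2.48 and 3.22 CPM in Control. In EtP BMD5 it had 1.03, 11.6 and 14.9 CPM, so again replicates 2 and 3 were high and replicate 1 was not. A library of another compound, PrP BMD5/50 replicate 2, had 14.3 CPM. The troponin I tnni2b.1 had 3.46, 9.46 and 15.5 CPM in EtP BMD5/10, against 2.46, 2.89 and 3.45 CPM in Control, and the groups did not overlap, by a narrow margin. The tropomyosin tpm4b had 5.04, 10.49 and 15.9 CPM, against 4.49, 5.87 and 6.20 CPM, with an overlap at replicate 1. The troponin C gene tnnc1a, which in zebrafish is needed in the heart, had 0, 25 and 40 reads in EtP BMD5/10 and 1, 1 and 3 reads in Control, too few for a fold change to be read. The main troponin I copy, tnni2a.4, had 1892, 3293 and 2735 CPM in EtP BMD5/10, against 2297, 3284 and 3995 CPM in Control.

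Without the libraries numbered 1, with 2 libraries left in each group, 6 members were called by edgeR in EtP BMD5/10 against Control, all higher; of the 18855 genes tested, 1.81% were called higher. They were tnni2a.1 (3.54 ± 0.61, log2 ± SE), myhb (3.40 ± 0.57), tnni2b.1 (1.97 ± 0.47), tpm4b (1.13 ± 0.28), the parvalbumin pvalb9 (0.77 ± 0.18) and the slow troponin I tnni1d (0.63 ± 0.13), with adjusted p between 0.00645 and 0.0461. In EtP BMD5/50, 2 were called higher (0.605% of all genes): tnni2a.1 (3.65 ± 0.61) and myhb (3.05 ± 0.57). In EtP BMD5, 0 members were called, against 0.35% of all genes called higher. Leaving out the libraries numbered 1 was decided from these same data. For tnni2a.1 and myhb in EtP BMD5/10, the EtP library left out was the one at the Control level. With all libraries and a term for the replicate number, 0 members were called by edgeR (smallest adjusted p 0.145 over the 21 comparisons).

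Markers of heart, liver, exocrine pancreas and blood were high in the same libraries. The 5 tested heart markers summed to 4.17, 36.6 and 41.0 CPM in EtP BMD5/10 and 2.75, 24.7 and 35.2 CPM in EtP BMD5/50, against 3.51, 5.78 and 5.10 CPM in Control. In PrP BMD5/50 the heart markers summed to 4.48, 29.5 and 5.43 CPM. In replicates 2 and 3 the heart markers lay above the same-numbered Control in every MtP and PrP group. The 6 liver markers summed to 93.0, 2079 and 2041 CPM in EtP BMD5/10, against 227, 196 and 266 CPM in Control. In replicates 2 and 3 the liver markers lay above the same-numbered Control in every MtP and PrP group too. They summed to 753.4 and 990.9 CPM in those of PrP BMD5 and to 305.5 and 307.7 CPM in those of MtP BMD5. In replicate 1 they lay below Control in every treated group. The 5 exocrine pancreas markers summed to 18.6, 1120 and 1799 CPM in EtP BMD5/10, against 23.7, 132.6 and 129.6 CPM in Control. Over the MtP and PrP groups they ran from 228.3 (MtP BMD5) to 520.8 CPM (PrP BMD5/50) in replicate 2. In replicate 3 they ran from 49.6 (PrP BMD5/50) to 590.8 CPM (PrP BMD5), on both sides of Control. The 4 erythroid markers summed to 135.3, 748.8 and 908.5 CPM in EtP BMD5/10, against 106.5, 220.8 and 465.4 CPM in Control. The 5 neuronal markers summed to 1695, 1149 and 1166 CPM in EtP BMD5/10, against 1507, 1359 and 1320 CPM in Control. The skeletal muscle markers outside the rule summed to 11750, 22880 and 20430 CPM in EtP BMD5/10 and 12930, 21920 and 23300 CPM in Control. Over the 30 libraries, log2 CPM of myhb had a Pearson correlation of 0.95 with the heart markers and 0.97 with the liver markers. Other members were high with the liver markers too, such as mybpc2a (0.92) and tnni1d (0.91), while pvalb6 stood at -0.83. The step between replicate numbers runs through all these values. The part of these tissues in the values of the muscle genes was not tested.

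**Figure D5:**
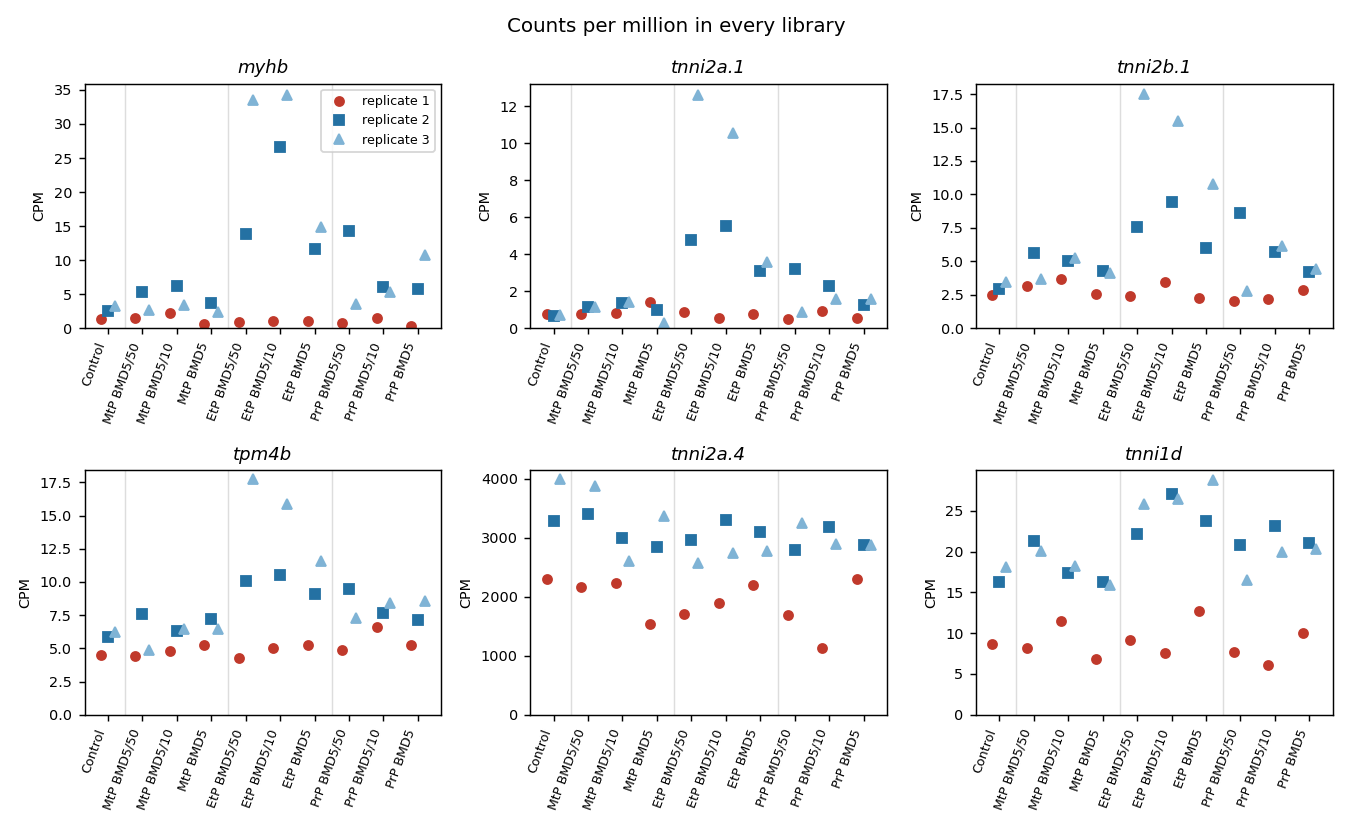
CPM of 6 genes in all 30 libraries, from Control at the left through the 3 labels of MtP, EtP and PrP, on linear axes that start at 0. Colours and shapes mark the replicate number: the highest library of myhb, tnni2a.1, tnni2b.1 and tpm4b is replicate 3 of EtP BMD5/10 or EtP BMD5/50, while the abundant tnni2a.4 and the slow tnni1d show replicate 1 as the low library of every group.

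The authors' deposited table tests transcripts one by one, with a p under 0.05 before adjustment and a change of 1 log2 unit or more as the thresholds. In it, 0 to 10 of the 232 member transcripts were called per comparison. The authors' deposited table called 8 at EtP BMD5/50 (1.34% of all transcripts), 10 at EtP BMD5/10 (1.3%) and 4 at EtP BMD5 (0.959%). For MtP at BMD5/50, BMD5/10 and BMD5 the authors' deposited table called 4, 5 and 1 (0.969, 0.783 and 0.583% of all transcripts), and for PrP 2, 1 and 0 (0.603, 0.693 and 0.753%). The member share was above that of all transcripts for EtP at all 3 labels, MtP at BMD5/50 and BMD5/10 and PrP at BMD5/50. It was below in the others. Some calls rest on few reads: tnni1d-205 had 20 and smyhc1-202 had 188 reads over all libraries. Transcripts of 1 gene are not independent. By the q-value of the authors' deposited table, 1 member transcript passed 0.05 at EtP BMD5/50 (0.0985% of all transcripts) and 1 at PrP BMD5/10 (0.0401%), and 0 in the other 7 comparisons. Both were myhz2-202, a transcript of a fast heavy chain, at -1.13 (q = 1.61e-05) and -0.96 (q = 0.0418) on the log2 scale in the authors' deposited table. This transcript took 33.7 to 97.1% of the reads of myhz2 in the libraries numbered 1 and 12.1 to 32.5% in the others. How reads were assigned to transcripts is not stated.

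The compounds differ in the length of their alkyl chain, methyl, ethyl or propyl, and were compared at equal labels, although the concentrations behind equal labels are not given. No member passed an adjusted p of 0.05 in the 9 comparisons between compounds, by edgeR or DESeq2, and 0.0% of all genes did. EtP lay above MtP in 45 of 74 members at BMD5/50 (median log2 fold change 0.06), 65 at BMD5/10 (median 0.29) and 70 at BMD5 (median 0.35). Over all genes the share above 0 was 52.0, 51.1 and 52.3%. Many members vary together over the libraries, so these counts are not independent observations. PrP lay above MtP in 22, 43 and 67 members at BMD5/50, BMD5/10 and BMD5, with medians of -0.06, 0.04 and 0.20. The replicate numbers paired these libraries, and with the replicate block the median at BMD5/10 turned to -0.10. PrP lay above EtP in 23, 6 and 21 members (medians -0.15, -0.22 and -0.11). At BMD5 the medians of EtP over MtP by number were 0.77, 0.43 and 0.12 for replicates 1, 2 and 3. At BMD5/10 the signs differed between numbers, with -0.18, 0.40 and 0.39 for EtP over MtP (12 of 74 genes with the same sign in all 3) and -0.99, 0.28 and 0.20 for PrP over MtP (6 genes).

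The 95% intervals were wide: in EtP BMD5 against MtP BMD5, those of 14 members lay within 1 log2 unit of 0 and those of 65 within 2 units. At an unadjusted p under 0.05, EtP BMD5/10 against MtP BMD5/10 had 4 members (3.12% of all genes): myhb, tnnc1a, tnni2a.1 and tpm4b. The same 4 names came up in EtP BMD5/50 against MtP BMD5/50, a lower share of the members than the 6.99% of all genes at that p. Of these, tnnc1a had 249 reads over all libraries, too few for a fold change to be read. For tnni2a.1 the log2 fold change was 2.22 ± 0.83 at BMD5/10 and 2.63 ± 0.84 at BMD5/50. PrP lay below EtP for tnni2a.1 at BMD5/10 (-1.83 ± 0.82) and BMD5/50 (-2.04 ± 0.82), with an unadjusted share of all genes of 1.66% and 3.47%. The other 5 comparisons between compounds had 0 members at that p, with 3.82% of all genes for EtP over MtP at BMD5. The shares were 2.79, 1.21 and 2.41% for PrP over MtP at BMD5/50, BMD5/10 and BMD5, and 1.76% for PrP over EtP at BMD5. Without the libraries numbered 1, 5 members were called in EtP BMD5/10 against MtP BMD5/10, all higher (2.24% of all genes called higher). They were myhb (2.69), tnni2a.1 (2.53), tpm4a (0.70), the pump atp2a1 (0.60) and tnni1d (0.58). In EtP BMD5 against MtP BMD5, 1 member was called, tnni1d (0.69), against 0.324% of all genes called higher. With all libraries and the replicate block, 0 members were called in either comparison.

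Between the highest and lowest label of 1 compound, 0 members passed the adjusted threshold and 0 had an unadjusted p under 0.05, by edgeR, and DESeq2 called 0. The unadjusted share of all genes was 1.97% for MtP, 0.825% for EtP and 3.48% for PrP. The medians of BMD5 over BMD5/50 were -0.22 for MtP, with 8 of 74 genes above 0, 0.08 for EtP, with 53 above 0, and 0.06 for PrP, with 51 above 0. Of all genes, 48.2, 50.5 and 47.7% lay above 0. In the MtP comparison the medians by number were -0.43, -0.27 and -0.07 in replicates 1, 2 and 3. In the PrP comparison they were 0.45, -0.13 and 0.16, with 10 genes of the same sign in all 3, and without the libraries numbered 1 the median turned to -0.06. In the EtP comparison they were 0.26, 0.04 and 0.003.

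Few members had 3 treated libraries all on 1 side of the 3 Control libraries. With MtP this held for tpm1 at BMD5/50 (6.8% of all genes higher, 4.56% lower), for tnni2a.1, tnni2b.1 and tpm1 at BMD5/10 (4.81% higher, 4.78% lower) and for pvalb9 at BMD5 (3.09% higher, 2.65% lower), all higher than Control. With EtP it held for ryr2b and tnni2a.1 at BMD5/50, both higher (3.78% of all genes higher, 3.3% lower). At EtP BMD5/10 it held for tnni2b.1, higher (3.31% of all genes), and for the alpha-actinin actn2b, lower (3.26%). At EtP BMD5 it held for 0 members, against 3.17% of all genes higher and 3.34% lower. With PrP it held for pvalb9 and tpm1 at BMD5/50 (2.13% of all genes higher, 2.36% lower) and for nebl, tnnt2b and tpm1 at BMD5 (3.61% higher, 3.16% lower), all higher. At PrP BMD5/10 it held for pvalb9, tnnc1a, tnni2a.1 and tpm4b, higher (3.45%), and for atp2a3, lower (2.84%). The tropomyosin tpm1 had 38.3, 46.6 and 47.2 CPM in PrP BMD5, against 34.6, 36.9 and 35.9 CPM in Control. In Control, 67 of 74 members were lower in replicate 1 than in the mean of the others, and each treated group had this step. The step widens the range of each group, so a lack of separation does not show that the groups were alike. At MtP BMD5, 53 members had the same sign in all 3 numbers, yet only pvalb9 was separated.

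The coupling genes outside the rule gave 0 calls against Control as well. Of their 24 tested genes, 1 lay above 0 at MtP BMD5 (median -0.32), 16 at EtP BMD5 (median 0.17) and 14 at PrP BMD5 (median 0.03). The 41 tested genes of sarcomere assembly had 1, 28 and 19 above 0, with medians of -0.33, 0.10 and -0.01.

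The members did not all share 1 pattern over the 30 libraries. With mylpfa, Pearson correlations of log2 CPM were highest for mylz3 (0.92), pvalb1 (0.92) and actc1a (0.90) and lowest for atp2a2b (-0.59), pvalb6 (-0.30), nebl (-0.20), actn2b (-0.07) and atp2a3 (0.05). Outside the rule the closest were cdnf (0.94), smyd1a (0.93), a methyltransferase of myosin assembly, vimr1 (0.92), them6 (0.91) and CABZ01078594.1 (0.91). The slow heavy chain smyhc1 was closest to the pump atp2a1 (0.98), the troponin I tnni4b.2 (0.98) and, outside the rule, egfl6 (0.98). The heavy chain myhb was closest to tnni2b.1 (0.92) and tpm4b (0.91) among members and, outside the rule, to pla2g12b (0.97), the apolipoprotein apoa2 (0.97) and the transferrin tfa (0.97). These libraries share the step between replicate numbers, so the values are a description.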

How the data were processed

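Whole-body total RNA of 30 libraries was extracted with RNAzol, per the labels' protocols. The deposited table gives, per the file headers, read counts and TPM of each transcript in each library. It also gives the authors' log2 fold changes, p-values and q-values against Control, used only where credited. No aligner, counter or build is named (not given in the sources used here). The 30 columns of RPKM were not used. Counts and TPM were summed per symbol (0 blank symbols, 0 identical pairs of libraries). Columns headed PP were taken as PrP, the only compound left. Of 78 gene IDs of members, 77 matched the gene name reference.

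Counts were tested with edgeR 4.0.16 (quasi-likelihood, TMM, filterByExpr at 10 counts, 10 group means, R 4.3.3) in 21 comparisons. A fit with terms for group and replicate number gave the contrasts between numbers. Benjamini-Hochberg adjustment ran over all 18543 genes at 0.05, and DESeq2 1.42.0 was an alternative. Exact permutation of 3 and 3 libraries gives no p under 0.1 and was not used. CPM use TMM library sizes, and log2 CPM a prior count of 2. SE come from the F statistic and intervals are 95%. The fits were run on simulated counts in which only a small part of the genes had a step between replicate numbers. In these data 56.4% of all genes differed between replicate 1 and the others, so that run does not cover this step.

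The replicate numbers paired the libraries in 14 of 21 comparisons (every correlation of same-numbered deviations over 0.1), and the blocked fit changed no call. Members and lists were chosen with earlier results of these data known. Named were the members by role, those called, the 3 with the smallest p at each BMD5, and those most and least like mylpfa.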

Additional observations from a re-analysis of the deposited data

How the results depend on the processing

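With the libraries numbered 1 left out of all groups, the count of called members moved to 6 in EtP BMD5/10 against Control, 2 in EtP BMD5/50 against Control, 1 in EtP BMD5 against MtP BMD5 and 5 in EtP BMD5/10 against MtP BMD5/10. In the other comparisons it stayed at 0. It stayed at 0 in all 21 with RLE scaling, DESeq2, no filter, a minimum count of 50, only the 2 groups compared, and the replicate block. With the replicate block the smallest adjusted p of a member was 0.145 and 3 medians turned sign: EtP BMD5/50 and BMD5/10 against Control (both to -0.02) and PrP against MtP at BMD5/10 (to -0.10). A minimum count of 50 turned that of EtP BMD5/50 against Control (to -0.005). Without the libraries numbered 1, the medians of MtP BMD5/50 and PrP BMD5/10 against Control turned to 0.03 and 0.04, and that of PrP BMD5 against BMD5/50 to -0.06. Leaving out each library in turn gave 0 called members in every refitted comparison (smallest adjusted p 0.295), and moved a median by at most 0.41. In replicate 1 against replicates 2 and 3, 64 to 69 members were lower and 1 to 2 higher under every alternative run. The pump atp2a3, at 0.00 there, turned sign to 0.008 (DESeq2), 0.006 (RLE), 0.009 (no filter) and 0.004, 0.002, 0.022 and 0.004 without EtP BMD5, MtP BMD5/10, PrP BMD5 and PrP BMD5/10. The call of nebl was lost without EtP BMD5/10 (0.21). The cause was not tested. Genes with few reads, such as tnnc1a and ryr2b, are limited by depth, and a missed threshold does not show that values are alike.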

Other observations

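The share of a gene's reads that each annotated transcript took differed by replicate number for some members. Of 179 transcripts of 53 genes with at least 100 reads in every library, 21 transcripts of 11 genes (11.7%) had median shares at least 10 percentage points apart, and for 6 of them (3.35%) the libraries numbered 1 and the others did not overlap. Over all 19187 transcripts that met the same minimum, these shares were 2.17% and 0.104%. Transcripts of 1 gene are not independent, and the difference was not tested. For the alpha-actinin actn3b, transcript actn3b-201 took a median of 28.6% of the gene's reads in replicate 1 and 71.2% in replicates 2 and 3, with overlapping ranges (0 to 63.1% and 35.4 to 88.8%). For the heavy chain myhz2, myhz2-201 took 2.89 to 66.3% in replicate 1 and 67.5 to 87.9% in the others. For the tropomyosin tpm3, tpm3-202 took 30.2 to 51.7% in replicate 1 and 57.4 to 69.5% in the others. For the calcium pump atp2a1l, atp2a1l-201 took 71.2 to 79.9% in replicate 1 and 80.5 to 91.3% in the others. How the authors assigned reads to transcripts that share exons is not stated in the labels or the file.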
